A study of Mus musculus with 9 samples.

Results

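Glycolysis enzymes and glucose transporters of the mouse were read in 3 kinds of cell. These were cells sorted as haematopoietic stem cells (HSC), sorted cells known as very small embryonic-like stem cells (VSEL), and embryonic stem cells (ESC). The list named 10 genes, and every probe set that the platform annotation gave to one of these symbols alone was used. A probe set is a group of short probes on the array that measures 1 transcript or several alike. For 9 of the 10 genes there were 25 probe sets, of 45037 on the array that were tested. No probe set was listed for Gpi1, the isomerase of the second step, which was not analysed here. A further probe set named Hk1 together with other genes, among them Rpl17, and was not read.

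The study compared sorted marrow cells with a pluripotent line, using 9 arrays, 3 for each cell type. VSEL (Sca-1+Lin-CD45-) and HSC (Sca-1+Lin-CD45+) were taken from the marrow of C57BL/6 mice aged 4 weeks. ESC were the ESC-D3 line, of strain 129S2/SvPas, grown with 10 ng/ml of leukaemia inhibitory factor on dishes coated with 0.1% gelatin. All libraries were made from 20 sorted cells each, and the labels do not tell whether replicates stem from different animals or dishes. The p-values therefore reflect library-to-library spread alone, which may be technical. Strain, culture and cell type differed together between ESC and the marrow cells and cannot be told apart.

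VSEL arrays 2 and 3 were nearly alike (r = 0.989, against 0.831 to 0.957 in other pairs of a group) and were averaged as 1 library, VSEL 2+3. Means and tests therefore rest on 8 libraries, 2 for VSEL, 3 for HSC and 3 for ESC. VSEL 1 was less like VSEL arrays 2 and 3 (r = 0.838 and 0.831) than arrays within HSC or ESC were like each other (0.927 to 0.957). It differed from them over 4-fold at 4148 and 4232 probe sets, against 1565 to 2898 for pairs within HSC or ESC. The difference between the 3′ and 5′ control probe sets of Gapdh and actin, a measure of RNA and cDNA length, was 0.71 to 1.07 (log2) on the VSEL arrays, 0.73 to 0.96 on the HSC arrays and 0.34 to 0.45 on the ESC arrays. Cell type markers were read as the log2 of their summed level. The 9 pluripotency markers reached 13.47 to 13.85 on VSEL arrays, 8.99 to 9.29 on HSC arrays and 16.08 to 16.11 on ESC arrays. VSEL libraries also carried blood markers: the 12 granulocyte and monocyte genes reached 16.19 to 17.73 on VSEL arrays, 16.83 to 17.07 on HSC arrays and 8.85 to 9.11 on ESC arrays. The 8 measured erythroid genes reached 14.44 to 16.05 in VSEL, highest in VSEL 1, against 10.95 to 11.92 in HSC. The 8 pan-leukocyte markers reached 14.11 to 15.66 on VSEL arrays, lowest on VSEL 1, 16.39 to 16.51 on HSC arrays and 8.89 to 9.28 on ESC arrays. Of these, 3 (Coro1a, Laptm5 and Rac2) exceeded ESC in VSEL by the limma test, while Ptprc (CD45) and Cd48 lay below the array's median probe set on all VSEL arrays. The 6 measured HSC and progenitor markers, Kit and Flt3 among them, reached 8.88 to 10.91 on VSEL arrays, 9.70 to 10.55 on HSC arrays and 9.99 to 10.64 on ESC arrays. None was called between HSC and ESC or between VSEL and HSC, and in VSEL against ESC 1 was called higher (Meis1) and 1 lower (Kit). T and NK cell markers reached 14.26 to 15.01 in HSC and 9.12 to 11.64 in VSEL. The part of these other cells in the results below was not tested, and the names HSC and VSEL stand for the sort gates.

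Glucose enters cells through facilitative transporters, of which Slc2a1 and Slc2a3 encode GLUT1 and GLUT3. Hexokinases (Hk1, Hk2) phosphorylate it, phosphofructokinase (Pfkl and Pfkp encode the liver and platelet subunits) commits it to glycolysis, aldolase (Aldoa) splits the sugar and triosephosphate isomerase (Tpi1) interconverts its products. Lactate dehydrogenase A (Ldha) turns pyruvate to lactate and renews NAD+. Pluripotent cells in culture and blood stem cells are both known for relying on glycolysis, and hypoxia-inducible factors and Myc are well known activators of these genes.

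Promoter windows come from the RefSeq table of build GRCm38.p6, where 9 of the 10 symbols (all but Slc2a3) matched 13 windows, those of Aldoa overlapping in part. Each window runs from 250 bases before to 50 bases after a start. Shown 5′ to 3′ on the gene's strand are a transporter, an inducible and a constitutive enzyme of 1 step and the enzyme of lactate formation, because the results turn on them: Slc2a1, Hk2 and Ldha were lower in the marrow cells than in ESC, and Hk1 was not. Capitals mark ACGTG and GCGTG, the cores of the hypoxia response element, their reverse complements CACGT and CACGC, and the E-box CACGTG, which contains ACGTG.
Slc2a1, chr4:119108495-119108794, plus strand: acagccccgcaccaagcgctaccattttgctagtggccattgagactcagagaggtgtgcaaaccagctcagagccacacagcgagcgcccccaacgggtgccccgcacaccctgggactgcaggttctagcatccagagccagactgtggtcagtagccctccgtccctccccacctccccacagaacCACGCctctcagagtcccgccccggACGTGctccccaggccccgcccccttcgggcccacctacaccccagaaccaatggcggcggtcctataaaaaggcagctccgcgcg
Hk2, chr6:82774405-82774704, minus strand: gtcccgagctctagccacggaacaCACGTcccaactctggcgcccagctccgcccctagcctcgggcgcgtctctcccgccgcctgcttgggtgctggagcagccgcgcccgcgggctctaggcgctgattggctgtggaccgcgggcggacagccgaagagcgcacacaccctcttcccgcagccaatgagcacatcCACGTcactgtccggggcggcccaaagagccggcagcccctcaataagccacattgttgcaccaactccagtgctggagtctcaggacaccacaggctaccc
Ldha, chr7:46845554-46845853, plus strand: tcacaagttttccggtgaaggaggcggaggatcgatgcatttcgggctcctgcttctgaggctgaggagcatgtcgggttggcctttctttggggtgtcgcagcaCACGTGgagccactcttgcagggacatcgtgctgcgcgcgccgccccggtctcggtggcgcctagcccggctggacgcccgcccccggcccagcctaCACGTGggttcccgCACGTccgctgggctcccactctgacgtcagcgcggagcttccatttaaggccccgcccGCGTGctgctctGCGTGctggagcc
Hk1, chr10:62340372-62340671, minus strand: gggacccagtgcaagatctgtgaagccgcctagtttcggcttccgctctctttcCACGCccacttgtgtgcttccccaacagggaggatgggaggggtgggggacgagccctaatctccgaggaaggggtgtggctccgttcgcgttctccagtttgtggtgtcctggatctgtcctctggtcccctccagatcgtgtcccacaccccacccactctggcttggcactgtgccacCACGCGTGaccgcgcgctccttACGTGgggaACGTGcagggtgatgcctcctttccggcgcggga
The shown Ldha window was the only 1 of the 13 with CACGTG, which 7.15% of all 32851 windows of this length held. ACGTG was in 6 of the 13 windows, against 19.6% of all, and GCGTG in 6, against 32.4% of all, each on either strand. The overlapping Aldoa windows share their ACGTG, so this site is counted more than once. By gene, ACGTG was in 5 of the 9 and GCGTG in 5. Either core was in 9 of the 13, against 43.8% of all. The shown windows of Hk1, Slc2a1 and Ldha held both cores, and that of Hk2 held ACGTG alone. Hk1 and Ldha each had another window that is not shown. That of Hk1 held neither core, and that of Ldha held GCGTG alone. The GC box GGGCGG was in 9 of the 13 (35.7% of all), CCAAT in 5 (37.4%) and TATAAA in 1, that of Slc2a1 (13.6%). By gene these were 8, 4 and 1 of the 9. A match describes the letters in these windows, and binding was not measured.

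Against ESC, nearly all members were lower in the marrow cells. Of the 25 member probe sets, 20 were called lower in VSEL than in ESC (adjusted p under 0.05; limma with Benjamini-Hochberg over all probe sets), where 6.93% of all probe sets were called lower, and 1 was called higher, where 7.13% of all were. In HSC against ESC, 20 of the 25 were called lower, where 6.21% of all were, and 0 higher, where 4.42% of all were. Most were bright: 20 of the 25 lay above the median probe set on all 9 arrays. A fit of only the 22518 probe sets brighter than the median held 21 of the 25. It called 18 of these lower and 1 higher against ESC, in VSEL and in HSC. Over all probe sets in that fit, 3216 were lower and 1276 higher in VSEL, and 2959 lower and 2036 higher in HSC. The values of 21 member probe sets in VSEL and 20 in HSC lay wholly below ESC, where 16.4% and 16.7% of all probe sets did. Those of 2 lay wholly above ESC in VSEL and of 1 in HSC, where 38.1% and 13.3% of all did. The median difference of the member probe sets was -2.22 (log2) in VSEL and -1.78 in HSC, against 0.17 and -0.02 over all probe sets. Read from the brightest probe set of each gene, 8 of 9 members were called lower in VSEL (10.3% of all genes) and 7 of 9 in HSC (8.89%). The exceptions were Hk1, which was called higher in VSEL and not called in HSC, and Pfkp, which was not called in HSC. Without ESC 1 or ESC 2 the HSC count of probe sets was 13, and the HSC count of genes was 4 without HSC 1, ESC 1 or ESC 2. Both comparisons use the same ESC libraries. Fewer cells of a type and less RNA per cell cannot be told apart in these libraries.

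The 3′ to 5′ measure moved with these differences: its ESC values did not overlap those of the marrow cells. With it as a covariate, 3 member probe sets were called lower in VSEL and 6 in HSC, and 1 gene (Ldha) and 3 genes (Slc2a1, Slc2a3 and Ldha) respectively. Over all probe sets the VSEL calls fell from 6334 to 163 in that fit, and all 9 members kept the sign of their difference from ESC in both cell types there. The median difference of the 9 genes from ESC was -2.24 in VSEL and -2.21 in HSC with the covariate, against -2.26 and -1.77 without it. Since the measure separated ESC from the marrow cells, it and cell type cannot be told apart.

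**Figure D1:**
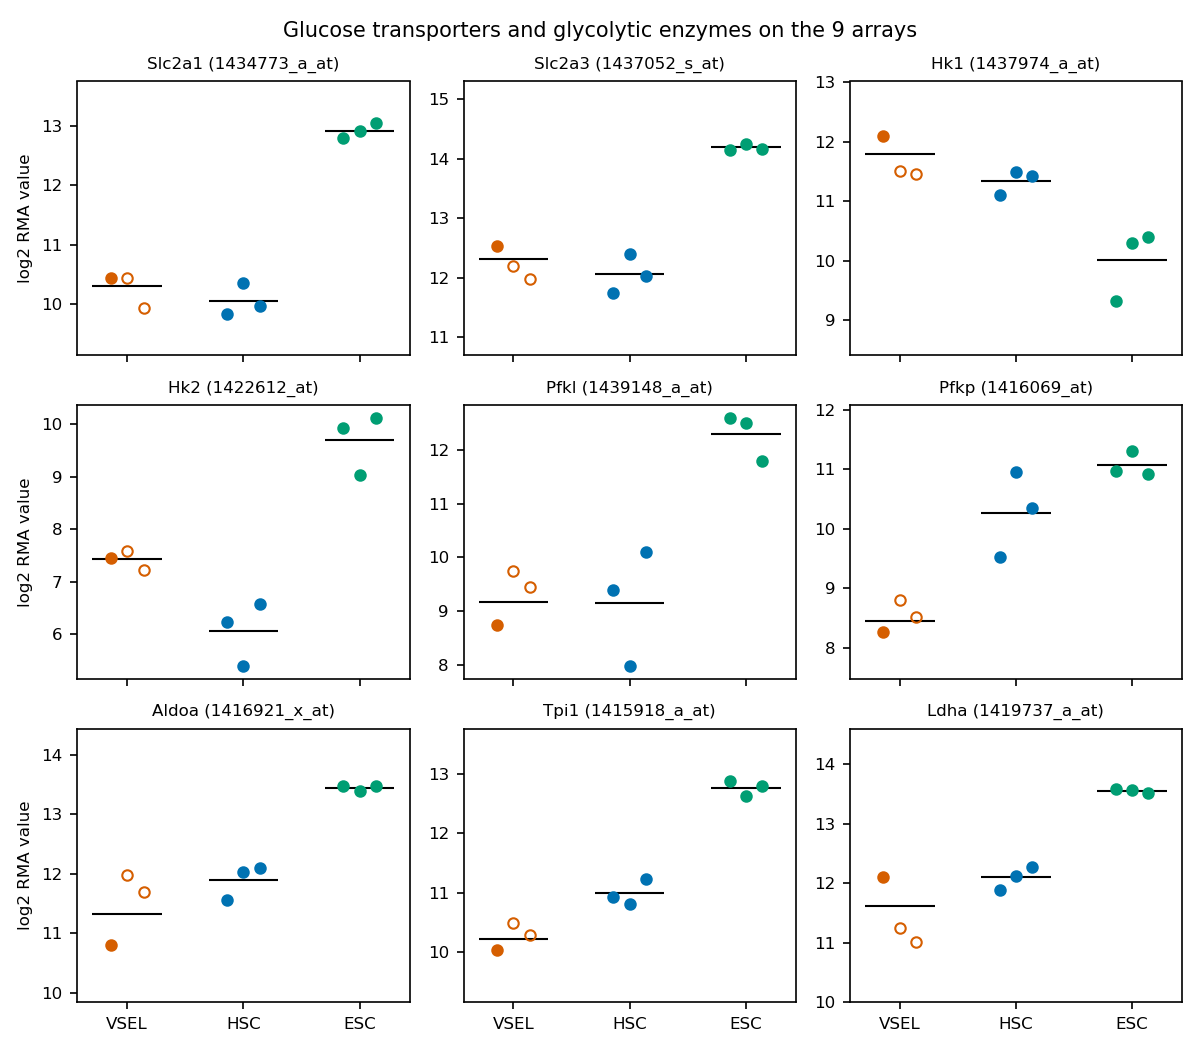
Log2 expression of the brightest probe set of each of the 9 measured members (vertical axis) in VSEL, HSC and ESC, with 1 point per array, open points for VSEL arrays 2 and 3 that were averaged, and a black line for the mean over libraries. In 8 panels all VSEL points lie below the ESC points, and in the Hk1 panel they lie above them.

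Both transporters were clearly lower in the marrow cells. Slc2a1 was 10.44, 10.44 and 9.94 (log2) on VSEL arrays 1, 2 and 3, 9.84, 10.36 and 9.98 on the HSC arrays and 12.79, 12.91 and 13.05 on the ESC arrays. All ESC arrays were thus above all marrow arrays, and VSEL and HSC overlapped. VSEL lay 2.60 below ESC (SE 0.19, 6.08-fold, limma adjusted p = 0.00128), and HSC 2.86 below (SE 0.17, 7.24-fold, adjusted p = 0.000154). Its 3 probe sets were all called lower in both comparisons, with differences of -2.87 to -2.59 in VSEL and -3.01 to -2.86 in HSC. Between VSEL and HSC the difference was 0.25 (95% interval -0.20 to 0.71, adjusted p = 0.381).

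Slc2a3 repeated this order. It was 12.54, 12.19 and 11.97 in VSEL, 11.74, 12.40 and 12.02 in HSC and 14.15, 14.25 and 14.16 in ESC, where the brightest probe set of any gene was 15.10 to 15.13. ESC again lay wholly above, with no overlap. The difference from ESC was -1.88 in VSEL (SE 0.23, 3.67-fold, adjusted p = 0.00606) and -2.13 in HSC (SE 0.20, 4.39-fold, adjusted p = 0.00119), and VSEL and HSC were not separated (0.26, interval -0.29 to 0.80). Of its 4 probe sets, 3 were called lower in both comparisons, and the dim remaining probe set gave -0.54 and -0.82 without passing the test. The brightest is of the _s_at class, whose probes match more than 1 transcript.

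The hexokinases, which carry out the same reaction, went opposite ways. Hk1 was 12.10, 11.50 and 11.46 in VSEL, 11.10, 11.49 and 11.43 in HSC and 9.33, 10.30 and 10.41 in ESC. The marrow values were all above the ESC values, and the lowest ESC array stood apart from the other 2. VSEL exceeded ESC by 1.78 (SE 0.37, 3.43-fold, adjusted p = 0.0298), and HSC by 1.33 (SE 0.33, 2.51-fold), which missed the threshold (adjusted p = 0.0562). The VSEL call was lost without VSEL 1 (1.47, adjusted p = 0.101), without ESC 2 (1.92, adjusted p = 0.0628) and without HSC 3 (adjusted p = 0.0528), in a fit of those 2 groups alone (0.0771) and with array weights (0.0677). Its other probe set was dim (group means of at most 5.88) and gave -0.88 and -0.70 against ESC, neither called, and its mean with the bright probe set was 0.45 above ESC in VSEL (adjusted p = 0.474).

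Hk2, the inducible hexokinase, was 7.45, 7.59 and 7.23 in VSEL, 6.23, 5.39 and 6.58 in HSC and 9.92, 9.03 and 10.12 in ESC. The 3 cell types did not overlap, with HSC lowest, VSEL between and ESC highest. VSEL was 2.26 below ESC (SE 0.44, 4.78-fold, adjusted p = 0.0256) and HSC 3.63 below (SE 0.40, 12.3-fold, adjusted p = 0.00216), the largest member difference in HSC. VSEL exceeded HSC by 1.37 (SE 0.44, interval 0.30 to 2.44), which missed the threshold after adjustment (adjusted p = 0.087). Under quantile normalization (1.99, adjusted p = 0.0361) or centring on ribosomal protein genes (1.59, adjusted p = 0.0388) it passed. The VSEL difference from ESC missed the threshold after quantile normalization (adjusted p = 0.0771), cyclic loess (0.088) or array weights (0.062) and without VSEL 1 (adjusted p = 0.0728), VSEL 2+3 (0.073), ESC 1 (0.0748) or ESC 3 (0.0655).

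Within each library, Hk1 minus Hk2 was 4.64 and 4.07 in VSEL, 4.87, 6.10 and 4.85 in HSC and -0.59, 1.27 and 0.28 in ESC. This quantity serves only to compare libraries, since the levels of different probe sets cannot be set against each other. It was 4.04 higher in VSEL than in ESC and 4.95 higher in HSC than in ESC, with no overlap in either case. By a two-sided exact permutation test p was 0.2 for VSEL and 0.1 for HSC, the smallest these numbers of libraries allow, and 0.257 for each after adjustment over the 9 paralog tests. With Hk1 read from its dim probe set the values were 1.38 and 2.93. Slc2a1 minus Slc2a3 was -2.10 and -1.89 in VSEL, -1.90, -2.04 and -2.04 in HSC and -1.36, -1.34 and -1.11 in ESC. The transporter pair thus lay 0.73 lower in VSEL than in ESC and 0.72 lower in HSC (exact permutation p = 0.2 and 0.1). With Slc2a3 read from its _x_at probe set these values were -0.38 and -0.16 (exact permutation p = 0.2 and 0.5).

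**Figure D2:**
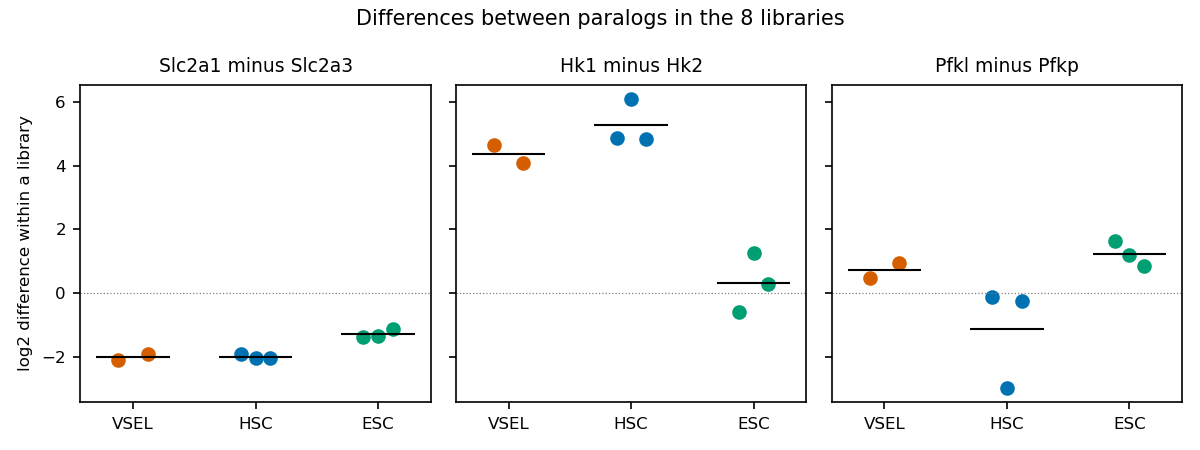
Within-library log2 difference between paralogs (vertical axis) for Slc2a1 minus Slc2a3, Hk1 minus Hk2 and Pfkl minus Pfkp, with 1 point per library of VSEL, HSC and ESC. Hk1 minus Hk2 is 4.07 or more in every marrow library and 1.27 or less in every ESC library.

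The phosphofructokinase subunits varied most among the HSC libraries (SD 1.1 for Pfkl and 0.72 for Pfkp). Pfkl was 8.75, 9.74 and 9.45 in VSEL, 9.39, 7.98 and 10.10 in HSC and 12.60, 12.50 and 11.79 in ESC. Every ESC array was above every marrow array, while HSC 2 was the lowest of all. Pfkl was 3.12 below ESC in VSEL (SE 0.64, 8.72-fold, adjusted p = 0.0292) and 3.14 below in HSC (SE 0.58, 8.80-fold, adjusted p = 0.0184). Without VSEL 1, VSEL 2+3, ESC 1, ESC 2 or ESC 3, or after cyclic loess (0.0885) or with array weights (0.0616), the VSEL adjusted p was 0.0533 to 0.0991, and without HSC 1, ESC 1 or ESC 2 the HSC adjusted p was 0.0539 to 0.0698. Another probe set gave -2.32 in VSEL (adjusted p = 0.0696) and -2.86 in HSC (adjusted p = 0.0315). The remaining, dim probe set (means 5.05, 4.52 and 4.67 in VSEL, HSC and ESC) was called higher in VSEL than in HSC by 0.53 (adjusted p = 0.0355).

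Pfkp was the member that differed most between the marrow cells. It was 8.26, 8.80 and 8.51 in VSEL, 9.52, 10.95 and 10.35 in HSC and 10.97, 11.30 and 10.93 in ESC. VSEL lay wholly below both other cell types, and HSC 2 reached the range of ESC. VSEL was 2.61 below ESC (SE 0.41, 6.10-fold, adjusted p = 0.0132) and 1.82 below HSC (SE 0.41, 3.52-fold, adjusted p = 0.036), while HSC was 0.79 below ESC (SE 0.36, interval -1.67 to 0.08, adjusted p = 0.29). The VSEL call against ESC was lost under cyclic loess (adjusted p = 0.0621). Its other 2 probe sets gave -0.19 and 0.54 between VSEL and HSC, neither called, and both were lower than ESC in VSEL and in HSC. Pfkl minus Pfkp was 0.49 and 0.94 in VSEL, -0.13, -2.97 and -0.24 in HSC and 1.63, 1.20 and 0.86 in ESC, so HSC lay wholly below VSEL and ESC (exact permutation p = 0.2 and 0.1). Both signs turned with another probe set, VSEL against HSC to -0.53 with another Pfkp probe set and HSC against ESC to 0.65 with the dim Pfkl probe set.

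Among the later enzymes, Aldoa was 10.80, 11.98 and 11.70 in VSEL, 11.56, 12.02 and 12.09 in HSC and 13.46, 13.39 and 13.47 in ESC. VSEL 1 was the lowest array, and ESC lay above all marrow arrays. The difference from ESC was -2.12 in VSEL (SE 0.32, 4.35-fold, adjusted p = 0.012) and -1.55 in HSC (SE 0.28, 2.93-fold, adjusted p = 0.0185). All 5 Aldoa probe sets were called lower in both comparisons, by -2.45 to -1.29 in VSEL and -1.78 to -1.06 in HSC. They are all of the _x_at class, whose probes can bind similar transcripts, and the RefSeq table lists Aldoa pseudogenes and the relatives Aldoart1 and Aldoart2, so the gene behind the signal is uncertain. Without HSC 1 or any 1 ESC library the HSC adjusted p was 0.0597 to 0.0646, and after cyclic loess the VSEL and HSC values were 0.0597 and 0.0637.

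Tpi1 was 10.04, 10.50 and 10.29 in VSEL, 10.93, 10.82 and 11.23 in HSC and 12.87, 12.63 and 12.79 in ESC. The 3 cell types stood in this order with no overlap. VSEL was 2.54 below ESC (SE 0.18, 5.83-fold, adjusted p = 0.00119), HSC 1.77 below (SE 0.16, 3.41-fold, adjusted p = 0.000978), and VSEL 0.78 below HSC (SE 0.18, 1.71-fold, adjusted p = 0.0392). Its 3 probe sets were all called lower against ESC, and 2 of the 3 between VSEL and HSC.

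Ldha was 12.10, 11.24 and 11.01 in VSEL, 11.89, 12.13 and 12.27 in HSC and 13.58, 13.57 and 13.52 in ESC. ESC lay above all marrow arrays and varied least (SD 0.033), and VSEL 1 lay within the HSC range. The difference from ESC was -1.94 in VSEL (SE 0.28, 3.84-fold, adjusted p = 0.0111) and -1.46 in HSC (SE 0.25, 2.75-fold, adjusted p = 0.015). Ldha was the only member whose VSEL call held in all 21 alternatives, the 3′ to 5′ covariate included (-3.04, adjusted p = 0.047). Its HSC adjusted p was 0.0505 to 0.0561 without HSC 1 or any 1 ESC library, and the RefSeq table lists Ldha pseudogenes whose reads could share its probes.

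**Figure D3:**
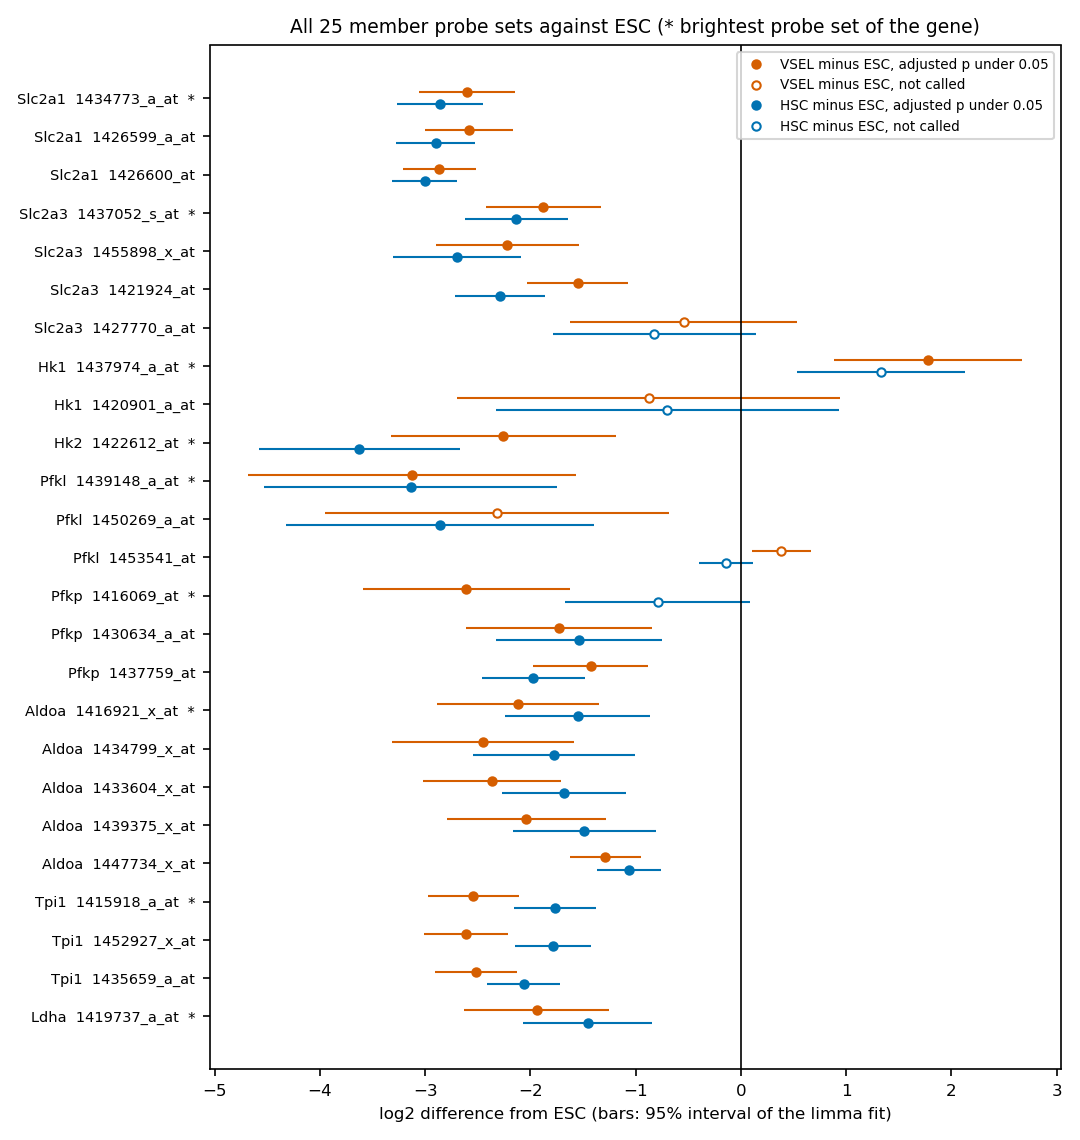
Log2 difference from ESC of all 25 member probe sets (horizontal axis) for VSEL and HSC, grouped by gene, with 95% intervals and filled points where the adjusted p was under 0.05. Of the 25 probe sets, 23 lie left of 0 in VSEL and 24 in HSC.

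Between VSEL and HSC, both sorted from marrow, few members were separated. Of the 25 probe sets, 3 were called lower in VSEL (6.19% of all probe sets) and 1 higher (8% of all), and 21 were not called. The median difference was 0.01 (log2), against 0.21 over all probe sets, and 13 differences were above 0 and 12 below. The VSEL values of 5 probe sets lay wholly above HSC (40% of all) and of 4 wholly below (12.8% of all). At the gene level Pfkp and Tpi1 were called lower in VSEL, 2 of 9, where 9.04% of all genes were. The split of calls moved with the scaling: member probe sets were 1 higher (a Slc2a1 probe set outside the 4) and 0 lower after cyclic loess, and 3 higher and 1 lower after centring on ribosomal protein genes, with 1 gene higher and 1 lower in the latter. Leaving out HSC 1, HSC 2 or ESC 2 left 1 of the 4 called probe sets, and leaving out HSC 3, ESC 1 or ESC 3 left 0. Without VSEL 1 none of the 4 was called and the Ldha probe set was, and without VSEL 2+3 there were 6 calls, 3 of them among the 4 and 3 of Aldoa. The call of Pfkp was lost without any 1 of VSEL 1, VSEL 2+3, HSC 2, HSC 3 or an ESC library (adjusted p = 0.0535 to 0.116), 13 of 21 alternatives in all counting other settings, and that of Tpi1 without VSEL 1 or any 1 HSC or ESC library (0.0553 to 0.125), 15 of 21 in all.

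Aldoa and Ldha gave -0.57 (adjusted p = 0.255) and -0.48 (adjusted p = 0.277) between VSEL and HSC, and VSEL 1 and VSEL 2+3 lay apart for each. Aldoa passed the test without VSEL 2+3 (-1.09, adjusted p = 0.0436) and Ldha without VSEL 1 (-0.97, adjusted p = 0.0332), each with VSEL as 1 lone library that is assumed to vary like the others. Hk1 gave 0.45 (interval -0.44 to 1.35) and Pfkl 0.01 (interval -1.54 to 1.57), intervals that hold differences of either sign.

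The other genes of glucose metabolism moved less evenly than the members. Of 77 listed, 71 were measured, Gapdh and Eno1 being among those without a listed probe set. In VSEL against ESC 13 were called lower (10.3% of all genes) and 6 higher (7.59% of all), and in HSC 16 were lower (8.89%) and 3 higher (6.38%), with medians of -0.57 and -0.17. Between VSEL and HSC 7 were higher (9.29%) and 5 lower (9.04%). Over 1.5 times fewer were called in VSEL against ESC without VSEL 1 or ESC 1 (11 each) or ESC 2 (12), in HSC against ESC without HSC 1 or ESC 3 (10 each) or ESC 2 (11), and in VSEL against HSC without HSC 1 (5) or ESC 2 (7). The VSEL split against ESC was 7 higher and 8 lower after quantile normalization once more and 8 and 8 after cyclic loess, and the VSEL split against HSC was 10 and 3, 8 and 2, and 14 and 4 after quantile, loess and ribosomal centring.

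None of the other 9 listed genes of the Slc2a family (Slc2a2, Slc2a4, Slc2a5, Slc2a6, Slc2a8, Slc2a9, Slc2a10, Slc2a12 and Slc2a13) was called in any of the 3 comparisons. Their differences from ESC were -0.43 to 0.87 in VSEL and -0.45 to 1.81 in HSC. Over all genes 6.38% to 10.3% were called in each direction, so 0 among 9 is not far from these shares. Slc2a2, Slc2a10 and Slc2a13 lay below the median probe set on all 9 arrays, where a difference would hardly be seen. Of 12 other glycolytic enzymes, 4 were called lower than ESC in VSEL (10.3% of all genes) and 6 in HSC (8.89%). In either cell type 0 were called higher (7.59% and 6.38% of all). Ldhb, the other lactate dehydrogenase subunit, was 9.31 ± 0.098 in VSEL, 9.27 ± 0.55 in HSC and 12.21 ± 0.11 in ESC (SD), a fall of 7.48-fold and 7.71-fold (adjusted p = 0.00384 and 0.00106). Pgam1, the phosphoglycerate mutase, was lower by 4.3-fold and 3.97-fold (adjusted p = 0.00192 and 0.000535), and Pkm, pyruvate kinase, by 2.61-fold and 3.36-fold (adjusted p = 0.0448 and 0.0145). Both followed the direction of most members. Pkm lost its VSEL call without VSEL 1, any 1 HSC or any 1 ESC library (adjusted p = 0.0619 to 0.115, with -0.80 without VSEL 1) and its HSC call without HSC 1, ESC 2 or ESC 3 (0.0522 to 0.0557).

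Eno3, an enolase best known from muscle, was low in VSEL (6.02 ± 0.67) against HSC (8.50 ± 0.53) and ESC (8.24 ± 0.68), called in both VSEL comparisons (adjusted p = 0.0297 and 0.0395). The call against ESC was lost without any 1 library except HSC 2 and ESC 2 (0.0525 to 0.131), and that against HSC without VSEL 2+3, HSC 1, HSC 3 or ESC 3 (0.0548 to 0.0955). Hkdc1, a hexokinase relative, was called higher in VSEL than in HSC by 1.07 (adjusted p = 0.0418) and lower in HSC than in ESC (-1.78, adjusted p = 0.0043). Its VSEL call was lost without any 1 library except ESC 1 (0.0544 to 0.134). Isozymes of the member steps that were not called included Hk3 (1.37 in VSEL and 1.64 in HSC against ESC), Pfkm (-1.53 and -1.22) and Aldoc (-1.83 and -1.73).

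In phosphofructokinase control, 1 of 4 measured genes was called higher (7.59% of all genes) and 0 lower (10.3%) in VSEL against ESC. In HSC 1 was called higher (6.38%) and 1 lower (8.89%). Pfkfb4, which makes and removes the activator fructose 2,6-bisphosphate, was 10.57 ± 0.57 in VSEL, 8.97 ± 0.40 in HSC and 6.58 ± 0.71 in ESC (15.8-fold and 5.24-fold above ESC, adjusted p = 0.00575 and 0.0162). Its HSC call was lost without HSC 1 or ESC 3 (0.0569 and 0.0531). Fbp2, a fructose bisphosphatase of gluconeogenesis, was 7.40 ± 0.062 in VSEL, 5.53 ± 0.49 in HSC and 9.68 ± 0.10 in ESC, called in all 3 comparisons (adjusted p = 0.0108, 0.00605 and 0.000154). G6pc passed the test in VSEL against HSC and ESC (0.56 and 0.76), at group means of 3.70 to 4.47, below the array's median, and its call against HSC was lost without any 1 library (adjusted p = 0.0586 to 0.0917) and that against ESC without ESC 2 (0.0513).

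Of the pyruvate dehydrogenase group, Dlat, the acetyltransferase subunit, gave differences from ESC of -1.92 for VSEL and -1.39 for HSC (adjusted p = 0.0172 and 0.031). Its VSEL call was lost without VSEL 1 or ESC 1 (0.062 and 0.0511), and its HSC call without HSC 1, HSC 2, ESC 1 or ESC 3 (0.089 to 0.0967). Dld, the dihydrolipoamide dehydrogenase, was lowest in VSEL, with a difference of -1.52 from HSC and -2.42 from ESC (adjusted p = 0.0285 and 0.00719). The call against HSC was lost without either VSEL library, HSC 3 or any 1 ESC library (0.0537 to 0.0823). In the pentose phosphate branch, Pgls, the lactonase, was higher in VSEL than in HSC by 2.27 and than in ESC by 1.81 (adjusted p = 0.0226 and 0.0412), and Rpe, the epimerase, differed by -1.20 and -2.18 (adjusted p = 0.0467 and 0.00903). The Pgls call against HSC was lost without VSEL 1 or HSC 1 (0.0791 and 0.0509) and that against ESC without any 1 library except HSC 3 (0.0547 to 0.138). The Rpe call against HSC was lost without any 1 library except HSC 3 (0.0574 to 0.143).

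The listed regulators divided in both directions. Hif1a, the oxygen-regulated subunit, was 7.01 ± 0.34 in VSEL, 9.93 ± 0.10 in HSC and 9.56 ± 0.57 in ESC. VSEL differed by -2.92 from HSC (adjusted p = 0.00432) and by -2.55 from ESC (adjusted p = 0.0078). Its other 3 probe sets were dimmer and none was called. Of 14 hypoxia-inducible factors and targets, 3 were called lower (10.3% of all genes) and 1 higher (7.59%) in VSEL against ESC. In HSC 4 were called lower (8.89%) and 0 higher (6.38%). Bnip3, a mitochondrial protein of the mitophagy pathway, gave differences from ESC of -1.86 for VSEL and -2.15 for HSC (adjusted p = 0.0178 and 0.00508), and P4ha1, a collagen prolyl hydroxylase, gave -2.50 and -1.80 (adjusted p = 0.0093 and 0.0142). The VSEL call of Bnip3 was lost without VSEL 1, VSEL 2+3, ESC 2 or ESC 3 (0.0509 to 0.0562) and the HSC call of P4ha1 without ESC 2 or ESC 3 (0.0569 and 0.0524). Vegfa passed the test in VSEL against HSC and ESC (0.67 and 0.51) at group means of 4.55 to 5.22, and lost the call against HSC without VSEL 1, VSEL 2+3, HSC 1 or HSC 2 (0.0502 to 0.0652) and that against ESC without any 1 library except HSC 1 (0.0695 to 0.127).

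Myc, a transcription factor that activates many glycolytic genes, was higher in VSEL (10.48 ± 0.093) and HSC (10.76 ± 0.87) than in ESC (8.54 ± 0.30), by 1.94 and 2.22 (adjusted p = 0.0474 and 0.0232). Its VSEL call was lost without either VSEL library, HSC 2 or any 1 ESC library (0.0745 to 0.13), and its HSC call without HSC 2 or any 1 ESC library (0.0526 to 0.085). Mycn, its relative, was 7.65 ± 0.11 in VSEL, 4.35 ± 0.88 in HSC and 10.18 ± 0.31 in ESC, called in all 3 comparisons (adjusted p = 0.0112, 0.0247 and 0.000422). Its call in VSEL against ESC was lost without either VSEL library or any 1 ESC library (0.0515 to 0.0773), and of its other 2 probe sets only 1 was called, lower in HSC than in ESC. Mlxip, a glucose-sensing partner of Mlx, was 5.09 ± 0.52, 8.94 ± 0.32 and 7.18 ± 0.32, also called in all 3 (adjusted p = 0.00112, 0.012 and 0.0101). The 3 genes thus had 3 different orders of cell types.

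**Figure D4:**
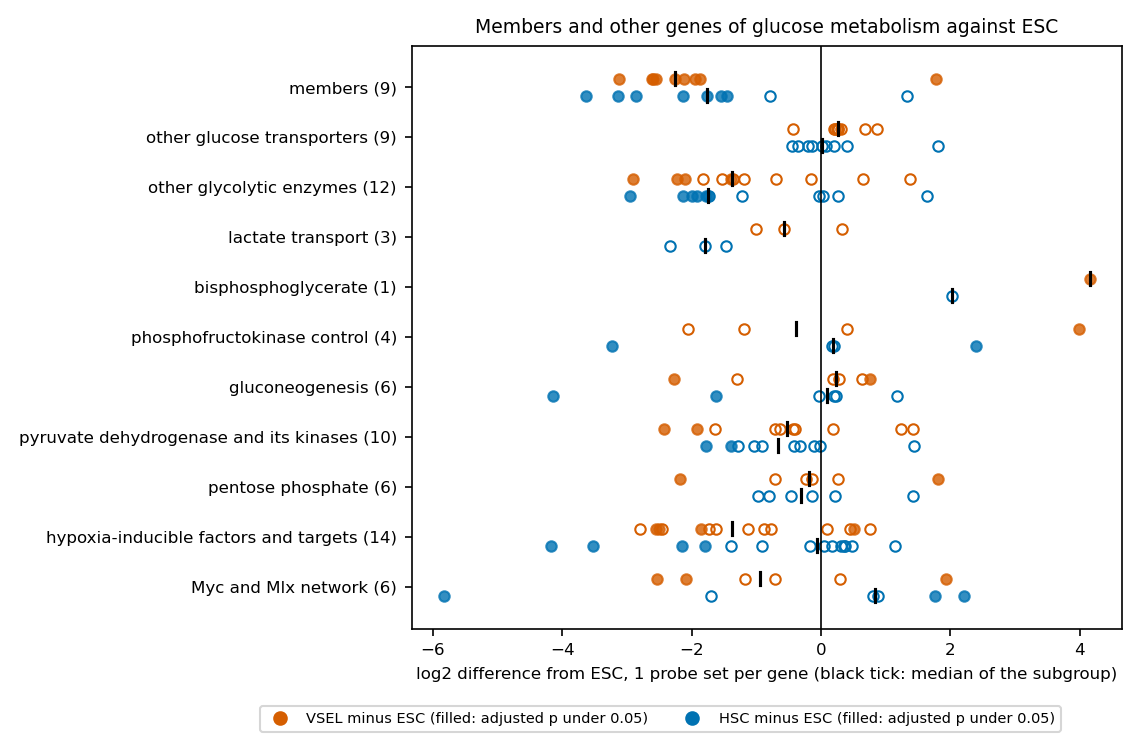
Log2 difference from ESC (horizontal axis) of the 9 members and 71 other genes of glucose metabolism in VSEL and HSC, grouped by role, with 1 point per gene, filled where the adjusted p was under 0.05, and black ticks for subgroup medians. Members and other glycolytic enzymes lie mostly left of 0. No point of the other Slc2a family genes (labelled other glucose transporters), some of them dim, is filled, and the farthest, Slc2a6, lies at 1.81 in HSC.

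Gapdh, the next enzyme after Tpi1, had no listed gene probe set but stands on the array as a quality control that was left out of the tests. Its 3′ control read 13.49, 14.46 and 14.51 in VSEL, 13.85, 13.90 and 14.03 in HSC and 14.66, 14.67 and 14.59 in ESC. Its 5′ control read 12.29, 13.74 and 13.79 in VSEL, 13.35, 13.15 and 13.42 in HSC and 14.48, 14.46 and 14.31 in ESC. The ESC arrays were highest for both controls, and the gap to the marrow arrays was wider at the 5′ end. The 3′ minus 5′ difference of Gapdh spanned 0.72 to 1.19 for VSEL, 0.50 to 0.75 for HSC and 0.18 to 0.28 for ESC.

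**Figure D5:**
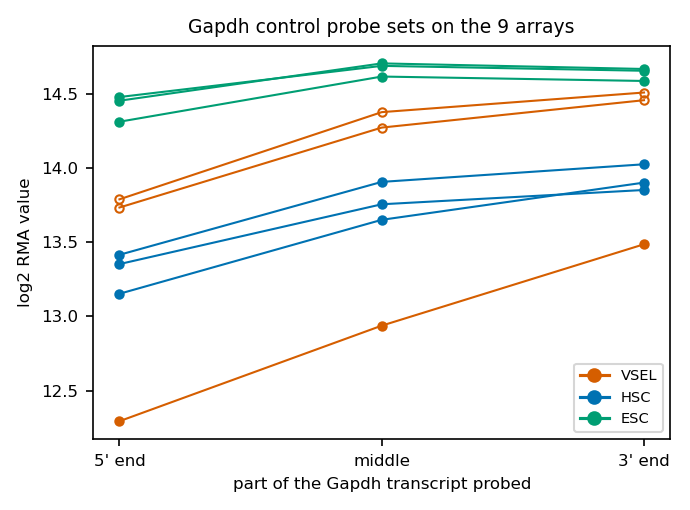
Log2 expression of the 3′, middle and 5′ Gapdh control probe sets (vertical axis) on the VSEL, HSC and ESC arrays, with 1 point per array. The ESC arrays lie at 14.31 to 14.71 across all 3 positions, while the VSEL and HSC arrays fall from the 3′ to the 5′ position.

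The genes whose profile over the 8 libraries was most like the mean of the 9 member genes, among 9035 outside the list and above the median gene, were Mif (Pearson r = 0.994), Kars (0.993), Nars (0.992), Wdr75 (0.991) and Rif1 (0.988). All were higher in ESC, Mif for example at 12.99 ± 0.053 in VSEL, 13.14 ± 0.15 in HSC and 14.48 ± 0.013 in ESC. These r values are descriptions over 8 libraries of 3 cell types that share a platform. Among the members, the r of each with the mean of the others was -0.894 for Hk1, 0.653 for Pfkp and 0.837 to 0.968 for the other 7.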

How the data were processed

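RNA of 9 libraries (3 each of VSEL, HSC and ESC-D3) was measured on Affymetrix mouse expression arrays, per the labels' protocols. The authors deposited 1 log2 value for each probe set. The tools named are RMA, which corrects background, normalizes by quantiles and summarises probes, and Partek 6.5, per the submitters' processing notes, with no settings stated. Values were used as deposited, and their distributions were not the same in all groups. The upper quartile over probe sets was 6.63 to 6.68 on VSEL arrays, 7.11 to 7.18 on HSC and 7.12 to 7.16 on ESC arrays. The lower quartile was 3.89 to 3.95 on VSEL arrays, 3.67 to 3.73 on HSC and 3.68 to 3.71 on ESC arrays. The cause of this was not tested. Differences are differences of log2 values, and the number of arrays limits their precision.

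After VSEL arrays 2 and 3 were averaged, all 45037 probe sets other than 64 controls were fitted in 1 limma 3.58.1 model over the 3 groups in R 4.3.3 (two-sided eBayes tests after lmFit, 5 residual degrees of freedom, prior 1.33), with Benjamini-Hochberg adjustment within a contrast and a call at an adjusted p under 0.05. Each gene was represented by the brightest of its probe sets on average. On simulated data of the same size, a log2 change of -2 in 200 probe sets was recovered for 56% (VSEL against ESC) and 56.5% (HSC against ESC). A change of -1 was recovered for 0% and 26%. Only those 200 probe sets were changed there, whereas the fit to the real arrays called 6334 for VSEL and 4788 for HSC, each relative to ESC. The Benjamini-Hochberg cutoff depends on how many probe sets differ, so these percentages do not give the recovery in the real data. Recovery between VSEL and HSC was not simulated. The genes named were all members, genes of the pathway list called in 2 or more contrasts, isozymes of a member step and the 5 genes most like the members. Members and lists were chosen with earlier results of these data known. Same-numbered arrays deviated little together (correlations -0.092 to 0.16), and they were not paired. VSEL arrays 2 and 3 were nearly alike, so this check cannot exclude a pairing. The alternatives were other scalings, filters, probe set choices, fits and leaving out each library.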

Additional observations from a re-analysis of the deposited data

How the results depend on the processing

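All 9 members kept the sign of their difference from ESC, in VSEL and in HSC, in all 21 alternatives (Aldoa in 20, since 1 leaves out its probe sets). Scaling moved the median difference of all probe sets from 0.21 in VSEL against HSC and 0.17 in VSEL against ESC to 0.44 and 0.35 after centring on ribosomal protein genes, and to 0.02 and 0.00 after cyclic loess. With centring, calls over all probe sets went from 3603 higher and 2786 lower to 11157 and 2910 in VSEL against HSC, and from 3213 and 3121 to 7217 and 3105 in VSEL against ESC, where quantile normalization once more gave 3510 and 2226. The causes were not tested.

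Member probe sets called against ESC fell from 21 to 13 in VSEL and from 20 to 12 in HSC without the _s_at and _x_at sets, which leaves fewer to count. The 3′ to 5′ covariate left 3 and 6, with 1 and 3 member genes, and called 0 and 3 pathway genes against 19 in each contrast. Cyclic loess left 5 of 9 member genes in VSEL. In VSEL against HSC, 1 probe set was called with loess (none of the 4), 2 of the 4 among sets above the median or with the covariate, and 0 in a fit of the 2 groups alone or with array weights. The 2 called genes became 0 with loess, the 2-group fit, weights or the covariate, and 1 with sets above the median, the mean of probe sets or an intensity trend. Against 12 pathway genes called, the 2-group fit called 3 and weights 4.

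Leaving out 1 library at a time gave 0 to 6 member probe sets, 0 to 2 member genes and 5 to 10 pathway genes called in VSEL against HSC. It gave 17 to 21, 6 to 9 and 11 to 18 in VSEL against ESC and 13 to 20, 4 to 7 and 10 to 22 in HSC against ESC.

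In VSEL against HSC the sign turned for Pfkl with weights (-0.0463), without VSEL 2+3 (-0.41) and without HSC 2 (-0.58, in a range up to 0.49 over libraries left out), and for Ldha without VSEL 2+3 (0.00267). Slc2a1 minus Slc2a3 was -0.00253 there and became 0.0325 with 9 arrays, 0.15 with loess, 0.0565 with another Slc2a1 probe set, 0.10 without VSEL 1 and 0.0435 without HSC 1 (from -0.11 to 0.10 over libraries left out, with -0.0259 without HSC 3). Pfkl minus Pfkp changed sign with other Pfkl probe sets (0.29 and 2.99 in VSEL and 0.65 in HSC against ESC) and with another Pfkp probe set (-0.53 in VSEL against HSC).

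The replicate number as a block, with 9 arrays kept separate, gave 4, 21 and 19 member probe sets and 2, 9 and 7 member genes called in VSEL against HSC, VSEL against ESC and HSC against ESC, and 15, 18 and 19 pathway genes. In VSEL against HSC, 2 of the 4 probe sets and 1 of the 2 genes called with the block were also called in the fit of 8 libraries, and the other gene was Hk2 (higher). Of the 9 arrays, 4 correlated best with their own number, and whether array numbers pair the samples cannot be told from this.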
